A study of Homo sapiens with 4 samples.

Results

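Chromosome 18 genes were taken as the rows of the 4 count tables that lie wholly on chromosome 18 and hold 40 or more raw counts summed over the 4 tables. They numbered 235, of 16143 rows with that many counts in the whole series, and of 1246 rows placed wholly on the chromosome. Of the other rows, 684 had no count and 327 had fewer than 40. The last rows inside the threshold were DOK6 and ENSG00000268573 with 40 counts, and the first outside it were BOLA2P1 with 39 and ZNF396 with 38. By the reference annotation 167 members were protein-coding and 34 were pseudogenes. The short arm held 64 members and the long arm 171, divided by a stretch of 5.94 Mb without a member that includes the centromere. Members were chosen by their summed counts, and the chromosome itself was picked with its change already known, so its shift as a whole is a description without a test. Coordinates in the tables are GRCh38, while the build to which the reads were aligned could not be settled from the sources used here.

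RNA came from 4 samples of MDA-MB-231, an established human breast cancer line of the triple-negative type, with 2 libraries labelled EGFP positive and 2 labelled EGFP negative. Cells of both groups were labelled wild type and transfected with H2B-EGFP, a green fluorescent histone fusion, and CMV-RFP, a red fluorescent protein under a viral promoter. The EGFP positive group was labelled as without increased extravasation, the exit of tumour cells from a blood vessel, and the EGFP negative group as with it. The 2 labels changed together, the series title speaks of polyploidy, and the labels used here give neither the ploidy of a group nor how the cells were separated or whether a group was 1 clone. Nothing says that the replicates were grown separately, and the p-values therefore reflect only how far these libraries vary, which can be technical variation.

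Gene counts summed to between 11445076 and 12635576 per library. The histone gene H2BC11 had 7733 and 7352 counts in the EGFP positive and 88 and 64 in the EGFP negative libraries, in the direction of the labels. Of the markers of a mesenchymal triple-negative line, VIM was at 4181 to 6022 CPM (each count divided by its TMM-scaled library total) and CD44 at 620 to 872 CPM, while ESR1, PGR and CDH1 had at most 3 counts in any library. ERBB2 was at 80.6 to 99.2 CPM. Among markers of other cell types, DCN of fibroblasts and CDH5 of endothelium were at 0 in all libraries and the leukocyte gene PTPRC had 2 to 6 counts. PECAM1, another endothelial gene, had 9 and 9 counts in the EGFP positive and 39 and 43 in the EGFP negative libraries, and VWF had 0 to 3.

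Human chromosome 18 is poor in genes for its length. Its short arm carries genes such as TYMS, YES1 and SMCHD1, and its long arm carries the SMAD2, SMAD4 and SMAD7 genes of TGF-beta signalling, the BCL2 gene of apoptosis control, the desmosomal cadherin cluster and a cluster of SERPINB protease inhibitors. The long arm is often lost in carcinomas, which is why SMAD4 and its neighbours have been studied as tumour suppressor genes. Neighbouring genes on a chromosome can share copy number and chromatin environment, so their transcripts may move together. The tables hold RNA counts and no measure of DNA.

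Sequence upstream of the start is shown for the called member with the lowest fold among those of at least 5 CPM (CCBE1), for the first gene of the long arm (ROCK1) and for the called member with the highest fold among those of at least 5 CPM (LAMA3), as examples of genes whose counts, summed over all their exons, changed in opposite directions. Each is the 250 bases before the start given by RefSeq on GRCh38.p14, which held an entry for 154 of the 235 members, read 5′ to 3′ on the gene's strand. CCBE1 is at chr18:59697424-59697673 on the minus strand, ROCK1 at chr18:21111814-21112063 on the minus strand, and LAMA3 at chr18:23872770-23873019 on the plus strand. The LAMA3 start lies inside the span counted for the gene, so that the change of LAMA3 cannot be assigned to this start. The span counted for CCBE1 ends at 59697662, so most of the CCBE1 stretch also lies inside its counted span. Capitals mark matches, on either strand, to GGGCGG (the GC box) or TGANTCA (the site of AP-1 factors), which could overlap.
CCBE1: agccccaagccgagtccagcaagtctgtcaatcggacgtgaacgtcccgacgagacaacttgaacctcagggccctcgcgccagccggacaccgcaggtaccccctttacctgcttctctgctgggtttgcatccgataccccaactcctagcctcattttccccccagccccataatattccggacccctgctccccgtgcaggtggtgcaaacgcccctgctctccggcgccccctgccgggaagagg
ROCK1: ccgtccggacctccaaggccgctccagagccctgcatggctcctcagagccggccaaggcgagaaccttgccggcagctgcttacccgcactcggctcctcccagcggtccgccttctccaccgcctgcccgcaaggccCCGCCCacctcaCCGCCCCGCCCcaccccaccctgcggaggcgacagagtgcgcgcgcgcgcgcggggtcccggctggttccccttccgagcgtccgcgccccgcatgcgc
LAMA3: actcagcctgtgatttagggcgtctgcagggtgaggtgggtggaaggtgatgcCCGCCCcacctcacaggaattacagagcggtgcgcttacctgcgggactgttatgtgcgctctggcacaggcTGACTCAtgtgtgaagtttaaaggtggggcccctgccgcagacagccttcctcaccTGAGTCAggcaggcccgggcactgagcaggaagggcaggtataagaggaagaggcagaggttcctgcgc
GC made up 63.2% of the CCBE1 stretch, 75.6% of the ROCK1 stretch and 60.4% of the LAMA3 stretch, against a median of 58% over 27305 promoters of the same length. CCBE1 had no match to either motif, ROCK1 had 3 GC boxes, and LAMA3 had 1 GC box and 2 AP-1 matches. A GC box was present in 42.3% of all promoters and an AP-1 match in 6.6%. These matches describe the letters and are not evidence of binding.

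The comparison asked how transcript levels of the chromosome differed between EGFP negative and EGFP positive cells, and whether both arms and all positions moved alike. Most chromosome 18 transcripts were slightly lower in EGFP negative cells. The median log2 fold change (EGFP negative over EGFP positive, from edgeR) was -0.18 over the 235 members, a level of 88.3% of that in EGFP positive cells, and it was -0.003 over the 16413 genes tested in the whole table. Of the members 175 (74.5%) had a value below 0, against 50.3% of all tested genes. All 235 passed the filter on low counts. In bulk RNA, fewer cells expressing a gene and less RNA per cell cannot be told apart, and CPM values are relative to the rest of the library.

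Single genes were called at an adjusted p under 0.05 by edgeR's quasi-likelihood test, fitted and adjusted over all 16413 genes. Over all tested genes 18.9% were called, 9.46% lower and 9.4% higher. On chromosome 18, 48 members fell (20.4%) and 8 rose (3.4%), with 179 not called. Both EGFP negative libraries lay below both EGFP positive ones for 116 members (49.4%), against 29.3% of all tested genes, and above them for 30 (12.8%), against 28.1%. For each of the 56 called members the groups did not overlap, which a call with 2 libraries per group makes likely. The share among all called genes is not given here. The shift was shallow: 5 members fell at least 2-fold and 2 rose at least 2-fold, 2.13% and 0.851% of the members, against 1.98% and 2.27% of all tested genes. Standard errors of the called log2 fold changes ran from 0.078 to 0.657 with a median of 0.107.

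**Figure D1:**
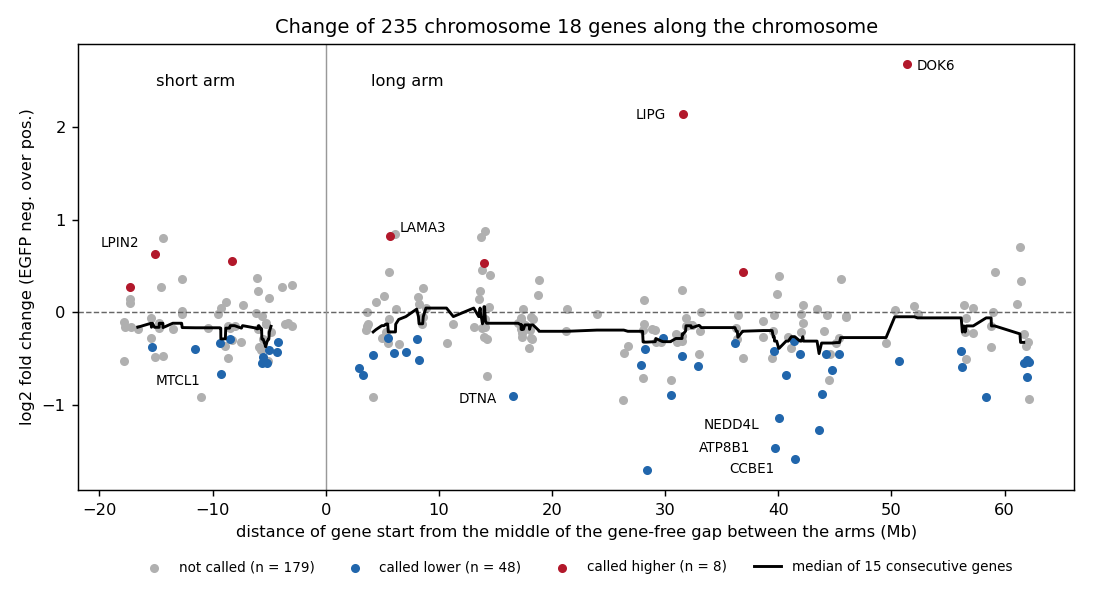
Log2 fold change of each of the 235 members (EGFP negative over EGFP positive) by position, with the short arm at negative distances. Position is the distance of the start, in Mb, from the middle of the stretch without a member between the arms. The axis label calls this stretch the gene-free gap. Blue points are the 48 members called lower, red points the 8 called higher and grey points the 179 not called; the black line, the median of 15 consecutive members within an arm, lies below 0 along most of both arms.

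Both arms were lower in EGFP negative cells. Summed over its 64 members, the short arm had 4058 and 3967 CPM in EGFP positive libraries 1 and 2 and 3611 and 3709 CPM in EGFP negative libraries 1 and 2. The long arm had 7059 and 7141 CPM in the EGFP positive and 5993 and 6116 CPM in the EGFP negative libraries. Both sums were thus lower in each EGFP negative library than in each EGFP positive one, at 0.912 and 0.853 of the EGFP positive level. The most abundant genes, MYL12B on the short arm and ATP5F1A on the long arm, made up 10% and 7.36% of the summed level of their arm. That share does not show how much a gene gave to the fall. NEDD4L, at a mean of 350.9 CPM in EGFP positive and 159.2 CPM in EGFP negative libraries, gave more than ATP5F1A (504.6 and 463.7 CPM).

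The median log2 fold change was -0.16 on the short arm (quartiles -0.365 and 0.027) and -0.20 on the long arm (quartiles -0.417 and -0.006). On the short arm 11 members fell and 3 rose of 64, and on the long arm 37 fell and 5 rose of 171. As shares, 17.2% of short-arm and 21.6% of long-arm members fell. The number of calls depended on single libraries. Without EGFP positive library 1 the short arm had 4 calls and the long arm 20, without EGFP positive library 2 they had 5 and 21, and without EGFP negative library 2 they had 23 and 67. DESeq2 called 27 long-arm members.

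Taken library by library, the median log2 ratio of an EGFP negative to an EGFP positive library (CPM + 0.5) was -0.221, -0.180, -0.119 and -0.069 on the short arm and -0.227, -0.235, -0.129 and -0.179 on the long arm, in the order negative 1 over positive 1, negative 1 over positive 2, negative 2 over positive 1 and negative 2 over positive 2. All 8 values were below 0. Library 2 over library 1 of the same group gave 0.063 (EGFP negative) and 0.003 (EGFP positive) on the short arm and 0.030 and 0.029 on the long arm. The ratio of EGFP negative library 2 to EGFP positive library 2 on the short arm was therefore about as large as the ratio between the EGFP negative replicates, while the other 7 were larger than any ratio within a group. With 2 libraries against 2, the smallest exact two-sided permutation p is 0.33, so none was computed.

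The long arm was lower than the short arm by little. The short-arm median minus the long-arm median was 0.039 in the fit and 0.108 without EGFP positive library 1. Over the 4 pairs of libraries between groups it was 0.006, 0.055, 0.010 and 0.110, and within groups it was 0.033 in EGFP negative and -0.026 in EGFP positive cells, so that 2 of the 4 values between groups were smaller than both values within a group. In protein-coding members alone the medians were -0.16 on the short arm and -0.27 on the long arm. That difference of 0.105 in the fit was 0.044 to 0.145 over the pairs between groups, against 0.044 and -0.034 within groups, with 3 of the 4 larger than either. Of protein-coding members 31.7% were called on each arm, against 22.9% of all protein-coding genes tested.

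**Figure D2:**
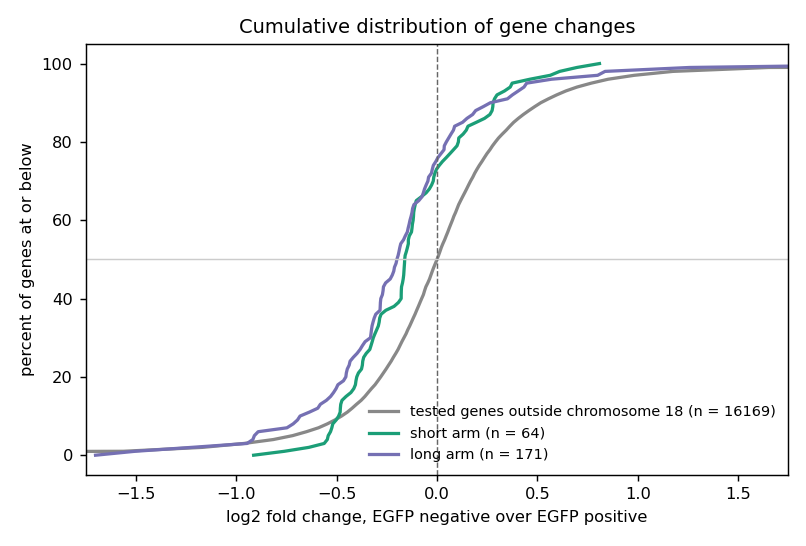
Percent of genes at or below each log2 fold change (EGFP negative over EGFP positive) for the 64 short-arm members, the 171 long-arm members and the 16169 tested genes outside chromosome 18. Both arm curves lie left of the grey curve around the middle, with medians of -0.16 and -0.20, and the arms lie close to each other.

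Protein-coding members had a lower median than pseudogenes, a difference that was not tested. Among the 167 protein-coding members the median was -0.21, 46 fell and 7 rose, and 80.2% had a value below 0, against a median of 0.005 and 49.3% for the 12060 protein-coding genes tested, of which 11.4% were called lower and 11.5% higher. The 34 pseudogene members had a median of -0.036, near that of all 2269 pseudogenes tested (-0.045). Of those 34, RPL6P27 fell and PGDP1 rose. A pseudogene row can hold reads of its parent gene on another chromosome, so these values are uncertain, as are those of RPL17 and NDUFV2, whose genes have copies elsewhere. ROCK1 on the long arm likewise has a pseudogene, ROCK1P1, which is a member on the short arm (log2 fold change -0.52, not called). How far reads of the 2 were mixed was not measured.

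Medians were below 0 at every expression level. Members of 5 to 25 CPM had a median of -0.19, those of 25 to 100 CPM -0.22 and those of 100 CPM and over -0.15, against 0.002, -0.009 and -0.011 over all tested genes of the same levels. In the range of 25 to 100 CPM, 26 of 75 members fell (34.7%, against 12% of all tested genes at that level) and 3 rose (4%, against 10.3%). Below 5 CPM, where few genes of any chromosome could be called, 1 of 57 members fell and 2 rose, with a median of -0.12.

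Along the chromosome the medians of 10 Mb windows were below 0 in all windows with 10 or more members. From 0 to 10 Mb the median was -0.16 (38 members), from 10 to 20 Mb -0.16 (26), from 20 to 30 Mb -0.14 (32) and from 30 to 40 Mb -0.10 (34). From 40 to 50 Mb it was -0.31 (27), from 50 to 60 Mb -0.27 (30), from 60 to 70 Mb -0.24 (22) and from 70 to 80 Mb -0.21 (23). In the fit the windows from 40 to 80 Mb thus had lower medians than those before them, with 24 of 27 members below 0 from 40 to 50 Mb and 26 of 30 from 50 to 60 Mb. Among 303 such windows of the whole table, whose medians ran from -0.382 to 0.46 with quartiles of -0.084 and 0.063, these last 4 ranked 8, 10, 12 and 17 from the lowest. A running median over 15 members reached -0.445 at ENSG00000267279, whose start is at 61585746. These medians mix protein-coding members (median -0.211) with pseudogenes (-0.036) and other noncoding or unnamed rows (-0.123). Differences between windows may thus reflect in part which rows they hold. Window medians over protein-coding members alone were not computed.

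The stretch from 30 to 40 Mb, which includes the desmosomal cadherin genes DSC2 and DSG2, had the median nearest to 0. There 1 member rose (the pseudogene PGDP1) and 1 fell (DTNA, 2.94%) of 34. Of all members 20.4% fell and 3.4% rose, and of all tested genes 9.46% and 9.4%. Some rows of this window are pseudogenes or unnamed, kinds of row that were seldom called. Its medians over the 4 pairs of libraries between groups were -0.114, -0.091, -0.034 and -0.012, while EGFP negative library 2 over library 1 gave 0.110, so that 3 of the 4 were smaller than this spread between replicates. From 40 to 50 Mb the 4 pairs gave -0.323, -0.392, -0.240 and -0.209, against 0.026 and 0.016 within groups. From 50 to 60 Mb they gave -0.267, -0.340, -0.209 and -0.274, against 0.046 and 0.020 within groups. In the window from 60 to 70 Mb the EGFP positive replicates differed by 0.130, more than the smallest ratio between groups (-0.081). From 70 to 80 Mb the 4 pairs gave -0.080, -0.134, -0.149 and -0.261, while EGFP negative library 2 over library 1 gave -0.078. In single pairs the order of the windows therefore changed: for EGFP negative 1 over EGFP positive 1 the window from 10 to 20 Mb (-0.317) was lower than those from 60 to 70 Mb (-0.208) and from 70 to 80 Mb (-0.080).

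**Figure D3:**
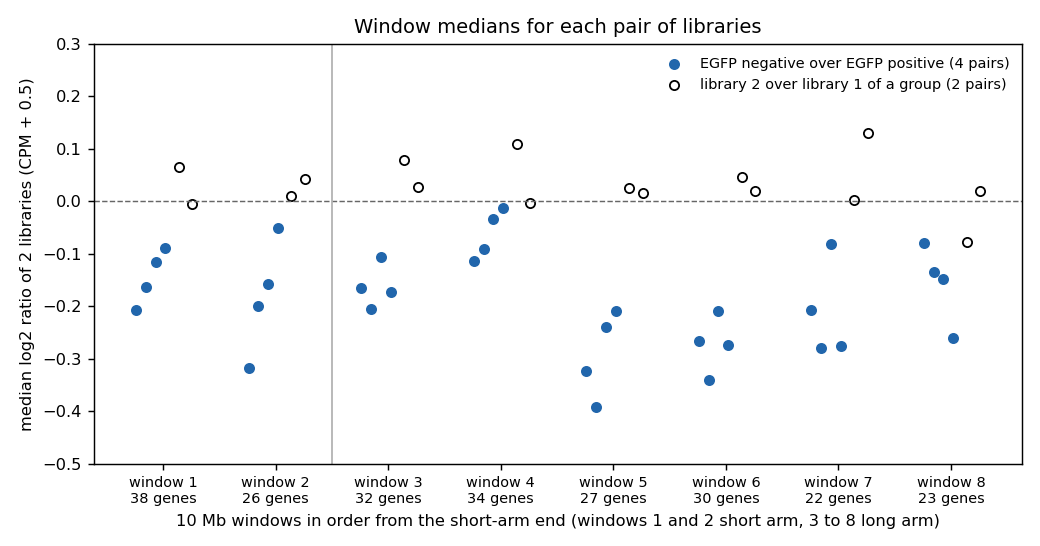
Median log2 ratio between 2 libraries (CPM + 0.5) over the members of each 10 Mb window, in order from the short-arm end. Filled points are the 4 pairs of an EGFP negative over an EGFP positive library and open points the 2 pairs within a group; in windows 5 and 6 the filled points run from -0.392 to -0.209 and lie apart from the open ones, and in window 4 they reach -0.012.

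Beside the other chromosomes, chromosome 18 had the lowest median of the 23 (1 to 22 and X). Chromosome 4 followed at -0.10 (18% of its 656 genes fell and 8.38% rose) and X at -0.10. Chromosome 12 was at the other end with 0.15, and its first 60 Mb alone had a median of 0.30, with 155 of 458 genes higher and 15 lower. Among 10 Mb windows with 10 or more genes, 7 on other chromosomes had medians below the lowest of chromosome 18. No test of the difference between chromosomes was made.

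**Figure D4:**
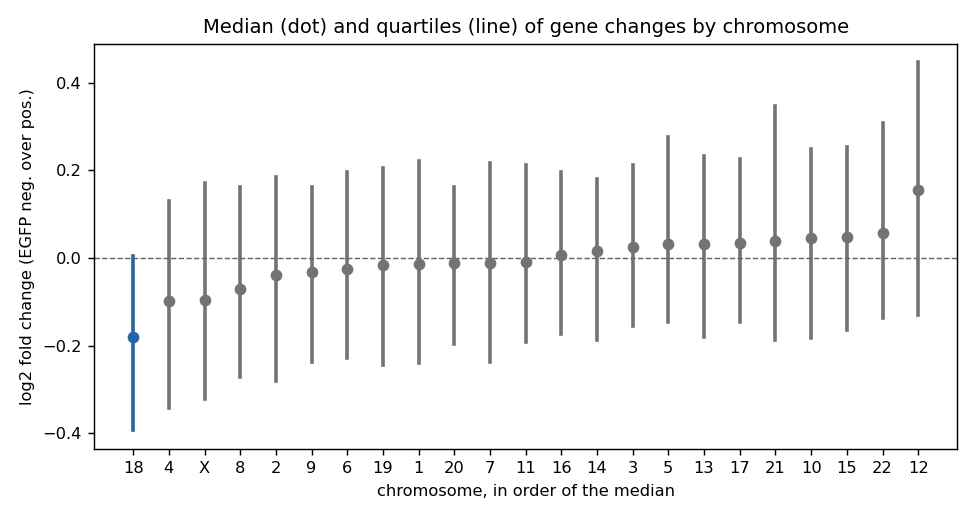
Median (dot) and quartiles (line) of the log2 fold changes of tested genes on each chromosome (EGFP negative over EGFP positive), ordered by the median. Chromosome 18 (blue, its 235 members) is lowest at -0.18 with an upper quartile near 0, and chromosome 12 is highest at 0.15.

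Among members of at least 5 CPM the largest falls were of CCBE1, ATP8B1, ENSG00000267279 and NEDD4L. All lay in a stretch of the long arm from ATP8B1 to RNF152. The stretch was drawn after these values were seen, and the counts of its windows include the same genes. Their higher shares therefore add no support. RNF152 itself (log2 fold change -0.88) fell less than ZNF516, DTNA and CTIF, which lie elsewhere. The windows of 5 Mb that hold this stretch reach beyond it on both sides. Between 55 and 60 Mb 7 of 17 members fell (41.2%) and 15 had values below 0. Between 60 and 65 Mb 5 of 18 fell (27.8%), among them RELCH, PHLPP1 and KDSR, which lie beyond RNF152. Of all members 20.4% fell, and of all tested genes 9.46%. The stretch included CCBE1 (chr18 59430939 to 59697662), a secreted matrix protein that promotes lymphatic vessel growth. CCBE1 was at 64.6 and 59.5 CPM in the EGFP positive and 20.5 and 20.9 CPM in the EGFP negative libraries, and its log2 fold change was -1.58 ± 0.11 (SE), with adjusted p = 2.9e-07. The EGFP positive level was thus 3-fold higher. ATP8B1 (57646426 to 57803315), a flippase that moves phospholipids across the plasma membrane, was at 51.4 and 57.7 CPM in EGFP positive and 19 and 20.5 CPM in EGFP negative libraries (-1.47 ± 0.12, SE; adjusted p = 1.2e-06). It overlaps ATP8B1-AS1 on the other strand, which had 67 counts in all. NEDD4L (58044226 to 58401540), a ubiquitin ligase that marks membrane channels and SMAD proteins for removal, was at 346.6 and 355.2 CPM in EGFP positive and 160.4 and 157.9 CPM in EGFP negative libraries (-1.14 ± 0.08, SE; adjusted p = 2.3e-07).

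Within the same stretch the changes were unequal. MALT1, the paracaspase of NF-kB signalling, fell from 58.3 and 58.2 to 35.5 and 37.1 CPM. PMAIP1, a pro-apoptotic gene of the BCL2 family, fell from 55.4 and 52.3 to 37.3 and 41.7 CPM. LMAN1, a cargo receptor between the endoplasmic reticulum and the Golgi, fell less, from 164.6 and 173.9 to 131.6 and 141.6 CPM (log2 fold change -0.31). RNF152, a ubiquitin ligase of lysosomes, fell from 16 and 17.1 to 9 CPM in each EGFP negative library. The unnamed row ENSG00000267279 fell from 14.7 and 16.8 to 6.83 and 6.17 CPM. TNFRSF11A, the receptor RANK, lay a short way on with 26.8 and 24.9 CPM in EGFP positive and 26 and 24.7 CPM in EGFP negative libraries, without a call (adjusted p = 0.91). PMAIP1 did not pass without EGFP positive library 1 (adjusted p = 0.14) or library 2 (0.056).

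Other long-arm genes with large falls lay at separate places. ZNF516, a zinc finger gene, was at 28.4 and 31.9 CPM in EGFP positive and 17.7 and 14.3 CPM in EGFP negative libraries (log2 fold change -0.91 ± 0.14, SE). DTNA, which encodes the dystrophin partner dystrobrevin, was at 22.4 and 23.8 against 12.1 and 12.6 CPM (-0.91 ± 0.14, SE). CTIF, a translation initiation factor that binds the cap-binding complex, was at 27.1 and 27 against 14.8 and 14.3 CPM (-0.89 ± 0.13, SE). The rule that picked these genes by size of change required groups without overlap, so their separation adds no support.

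On the short arm no member changed 2-fold. Among called members the largest fall was of MTCL1 (8705556 to 8832778), a microtubule-crosslinking protein, at 184.4 and 184.3 CPM in EGFP positive and 124.8 and 106.9 CPM in EGFP negative libraries (-0.67 ± 0.09 on the log2 scale, SE; adjusted p = 1.6e-04). AFG3L2, a subunit of a protease of the inner mitochondrial membrane, fell from 88.8 and 89.7 to 57.8 and 64.3 CPM. It overlaps TUBB6 on the other strand, and reads of the 2 could not be told apart where they overlap. PTPN2, a tyrosine phosphatase that dampens cytokine signalling, fell from 42 and 34.3 to 25.3 and 27 CPM, and FAM210A from 40.8 and 42.5 to 31.2 and 30.7 CPM. Their calls were lost without EGFP positive library 1 (adjusted p = 0.22 and 0.099), and that of FAM210A also without library 2 (0.18).

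The 8 members that rose were TYMS, LPIN2 and RAB31 on the short arm and LAMA3, LIPG, PGDP1, RAB27B and DOK6 on the long arm. LAMA3 (23689453 to 23955066), a chain of the epithelial basement membrane laminin that binds hemidesmosomes, was at 56.7 and 61.8 CPM in EGFP positive and 106.5 and 103.8 CPM in EGFP negative libraries (0.83 ± 0.09 on the log2 scale, SE; adjusted p = 3e-05). LPIN2 (2885296 to 3013144), a phosphatidate phosphatase of lipid synthesis, was at 106.1 and 104.6 against 159.9 and 166.2 CPM (0.63 ± 0.08, SE; adjusted p = 1.2e-04). It overlaps EMILIN2 on the other strand. RAB31, a GTPase of endosome traffic, rose from 45.8 and 50.4 to 67.6 and 73.8 CPM (adjusted p = 0.053 without EGFP positive library 1). LAMA3, LPIN2 and RAB31 changed against the trend of the chromosome. Every EGFP negative library lay above every EGFP positive one, which the rule that picked them by size of change required.

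TYMS, the thymidylate synthase needed for DNA synthesis, was at 170.8 and 164 CPM in EGFP positive and 202.3 and 204.1 CPM in EGFP negative libraries (adjusted p = 0.025, and 0.24 and 0.4 without EGFP positive library 1 or 2). It overlaps TYMSOS and ENOSF1 on the other strand. RAB27B, a GTPase of vesicle secretion, was at 26.2 and 26 against 32.3 and 38.1 CPM (adjusted p = 0.025, and 0.069 by DESeq2, 0.055 with no filter on low counts, and 0.16 and 0.18 without EGFP positive library 1 or 2). PGDP1, a processed copy of a pentose phosphate gene, lost its call without EGFP positive library 1 (adjusted p = 0.23). LIPG, a secreted lipase, rose from 4 and 14 to 37 and 47 counts, and the adaptor gene DOK6 from 1 and 4 to 22 and 13 counts. Both were scarce, and DOK6 sat at the threshold of 40 counts that made it a member.

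**Figure D5:**
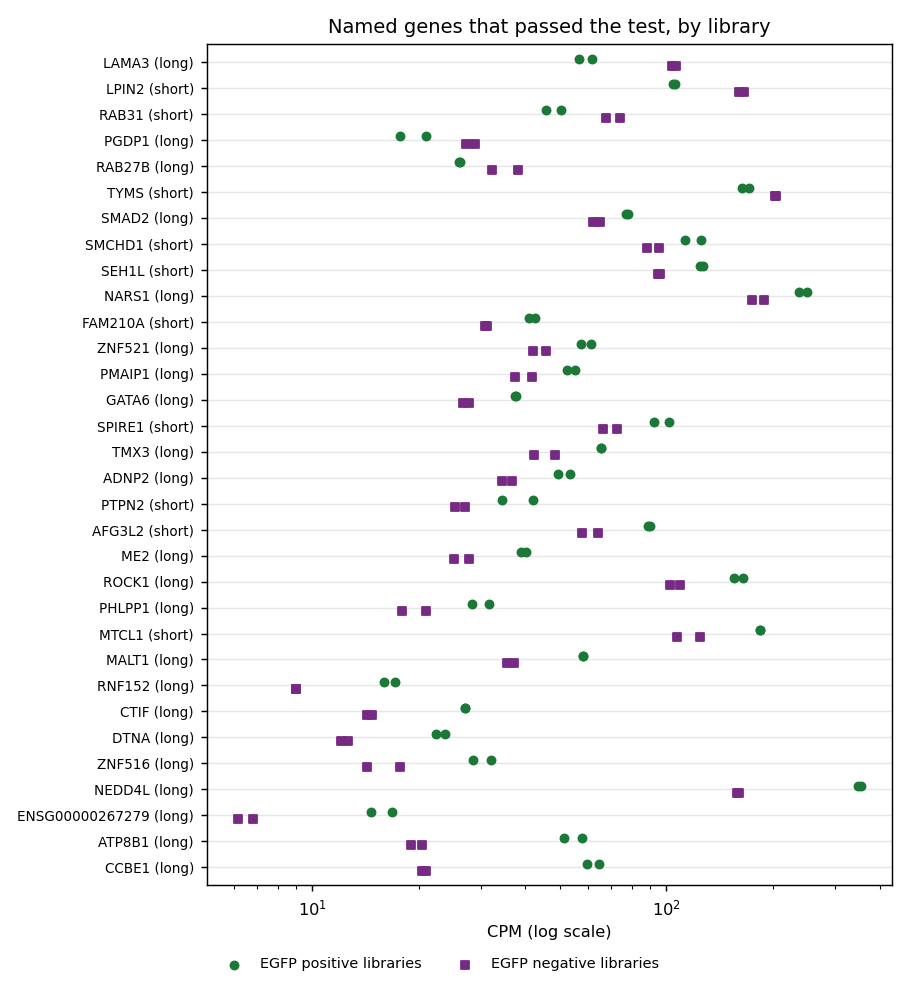
CPM on a log scale in each library for the 32 named members that passed the test, ordered by log2 fold change with the arm in brackets. Circles are the 2 EGFP positive and squares the 2 EGFP negative libraries. The 6 genes from LAMA3 to TYMS lie higher in EGFP negative libraries and the other 26 lower. No gene's groups overlap, which was a condition for those picked by size of change.

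Members were also read by function in lists of chromosome 18 genes, some of which had too few counts to be members. The shares over all members and all tested genes include pseudogene and unnamed rows, which were seldom called. Nearer to these lists of named genes are the protein-coding members, of which 31.7% were called and 27.5% fell. Of all protein-coding genes tested 22.9% were called and 11.4% fell. Whether a list differs from those shares was not tested. Of 18 measured transcription and chromatin genes 0 rose and 8 fell (44.4%, against 20.4% of all members and 9.46% of all tested genes), with a median of -0.37. They were ZNF516, ADNP2, ZNF521, GATA6, CTDP1, SS18, TAF4B and GREB1L. ADNP2, a homeobox gene, fell from 49.5 and 53.5 to 36.6 and 34.3 CPM, and GATA6, a factor of endoderm and epithelial fate, from 37.5 and 37.4 to 27.8 and 26.7 CPM. GATA6 overlaps GATA6-AS1 on the other strand, which had 73 counts in all. ZNF521 fell from 57.4 and 61.3 to 45.7 and 42.2 CPM. ADNP2 was not called without EGFP positive library 2 (adjusted p = 0.067), GATA6 without either EGFP positive library (0.11 in each), and ZNF521 likewise (0.055 and 0.17). TCF4, SALL3 and ZBTB7C of the same list had fewer than 40 counts.

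Genes of ubiquitin, protein folding and vesicle transport had 2 higher and 5 lower of 17, with a median of -0.27. That made 41.2% called, against 23.8% of all members and 18.9% of all tested genes. NEDD4L, RNF152, LMAN1, RAB12 and TMX3 fell and RAB31 and RAB27B rose. TMX3, a thioredoxin-like protein of the endoplasmic reticulum, fell from 65.2 and 65.3 to 42.4 and 48.5 CPM (log2 fold change -0.52 ± 0.10, SE). The abundant deubiquitinase USP14 was at 164.1 and 154.1 against 141.1 and 155.3 CPM, a difference that was not called (adjusted p = 0.47), with groups that overlapped.

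Metabolic and mitochondrial genes had 3 higher and 6 lower of 18, with a median of -0.16. The share called was 50%, against 23.8% of all members and 18.9% of all tested genes. TYMS, LPIN2 and LIPG rose, and AFG3L2, ME2, NARS1, TIMM21, KDSR and CYB5A fell. ME2, the mitochondrial malic enzyme, fell from 38.8 and 40.3 to 25.1 and 27.7 CPM. NARS1, which charges tRNA with asparagine, fell from 249.1 and 237 to 174.8 and 188.7 CPM (adjusted p = 0.0025, and 0.095 without EGFP positive library 1). ATP5F1A, a subunit of the mitochondrial ATP synthase, was at 521.5 and 487.8 against 494 and 433.5 CPM, a difference that was not called (adjusted p = 0.35).

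Apoptosis and NF-kB genes had 0 higher and 3 lower of 6, MALT1, PHLPP1 and PMAIP1, with a median of -0.39. This was 50% of a short list, against 23.8% called of all members and 18.9% of all tested genes. PHLPP1, a phosphatase that acts on AKT, fell from 28.2 and 31.5 to 21 and 17.9 CPM (adjusted p = 0.0052, and 0.084 without EGFP positive library 2). BCL2, the inhibitor of apoptosis, was at 21.9 and 24.5 against 19.8 and 17 CPM without passing (adjusted p = 0.12), although its groups did not overlap. The genes of the list act in different directions on cell death.

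Among genes of actin and myosin function, ROCK1 (20946906 to 21111813), a kinase that drives actomyosin contraction, was at 155 and 164.2 CPM in EGFP positive and 102.2 and 109.1 CPM in EGFP negative libraries (-0.60 ± 0.09 on the log2 scale, SE; adjusted p = 2.6e-04). SPIRE1, an actin nucleator, fell from 92.3 and 101.8 to 72.7 and 66.3 CPM (adjusted p = 0.003, and 0.1 without EGFP positive library 2). The myosin light chain genes MYL12A and MYL12B had log2 fold changes of -0.12 and -0.16 and the kinase gene YES1 -0.16, none of which passed.

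Genes of chromosome cohesion, kinetochore and centrosome had 0 higher and 2 lower of 10, with a median of -0.12. Their share called, 20%, was near that of all members (23.8%) and of all tested genes (18.9%). SEH1L, a nucleoporin that also sits at kinetochores, fell from 127.3 and 124.6 to 95.7 and 94.8 CPM, and SMCHD1, a chromatin protein of X inactivation, from 113.1 and 125.1 to 88.5 and 95.6 CPM. Neither was called without EGFP positive library 1 (adjusted p = 0.11 and 0.053) or library 2 (0.077 and 0.29). The kinetochore gene NDC80 was at 122.9 and 111 against 106 and 118.6 CPM, and the centrosome gene CEP192 at 59.1 and 61.6 against 63.7 and 70.8 CPM, and neither passed (adjusted p = 0.73 and 0.32).

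SMAD signalling genes had 0 higher and 1 lower of 6, with a median of -0.19. Their share called, 16.7%, was below that of all members (23.8%) and of all tested genes (18.9%). SMAD2, which carries TGF-beta signals to the nucleus, was at 77 and 77.9 CPM in EGFP positive and 62.3 and 65.1 CPM in EGFP negative libraries. Its call was marginal (adjusted p = 0.048) and was lost with RLE factors (0.053), upper quartile scaling (0.061), no filter (0.099), DESeq2 (0.14) and without EGFP positive library 1 (0.33) or 2 (0.38). SMAD4, the common partner of the pathway, was at 43.6 and 37.8 against 36.2 and 34.5 CPM (adjusted p = 0.26). The inhibitor SMAD7 was at 13.2 and 13.5 CPM in EGFP positive libraries and at 14.7 and 7.97 CPM in the EGFP negative ones, which lay on either side of them (adjusted p = 0.54). LDLRAD4 and SKOR2 had fewer than 40 counts.

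Channels, receptors and transporters had 0 higher and 3 lower of 7, with a median of -0.37. Called genes made up 42.9% of them, against 23.8% of all members and 18.9% of all tested genes. The falls were of ATP8B1, DTNA and PTPN2. Only ATP8B1 is a transporter, and DTNA and PTPN2 are neither channels, receptors nor transporters. The counts therefore describe the list as drawn and not that class of genes. The other 11 genes of the list, among them PIEZO2 and GNAL, had fewer than 40 counts. Of laminins and adhesion genes LAMA3 rose, PTPRM had a log2 fold change of -0.17 without passing, and LAMA1 had 12 and 17 counts in the EGFP positive and 10 and 6 in the EGFP negative libraries (adjusted p = 0.24). Both clusters of related genes had mostly few or no counts. Of 7 desmosomal cadherins, DSG2 was at 184.2 and 188.1 against 195.9 and 215.8 CPM and DSC2 at 11.5 and 13.5 against 9.32 and 13.1 CPM. Neither passed (adjusted p = 0.26 and 0.64), and the other 5 had at most 2 counts summed over the libraries. DSG2 was called higher without EGFP negative library 1 (adjusted p = 0.015). Of 10 SERPINB genes only SERPINB8 was a member, at 30.5 and 31.9 against 29.7 and 30.7 CPM (adjusted p = 0.83), and SERPINB2, with 25 counts in all, was the next most abundant.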

How the data were processed

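Raw counts per gene name were deposited for 4 libraries of polyA-selected RNA. Per the file headers the authors made these counts with featureCounts 2.0.1 from paired reads over exons of the GENCODE 46 basic annotation, with no strand option, so overlapping genes could not be told apart (48 members overlap another counted row). The submitters' processing notes name Subread and the builds GRCh37 and hg19, and the aligner is not given in the sources used here. The spans of all 253 protein-coding rows of chromosome 18 that GENCODE 29 also names overlapped their place there on GRCh38.

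Groups and replicate numbers came from the labels. Genes were filtered with filterByExpr (minimum count 10, total 15), scaled by TMM (factors 0.987 to 1.009) and tested with edgeR 4.0.16 (R 4.3.3), group as the only term. CPM was computed from the deposited counts. SE was taken as the absolute log2 fold change divided by the root of the F statistic. Replicates differed by more than sampling noise (chi-square per degree of freedom 2.12 and 6.67). Members were split into arms at 18 Mb. The members, lists and tests were chosen with earlier results of these data known. Named genes were, with at least 5 CPM, a call and no overlap between groups, up to 6 (short arm) or 8 (long arm) with the largest change in each direction, up to 4 called members of each of 11 lists by adjusted p or else the 2 most abundant, and all desmosomal and SERPINB members. LIPG, DOK6, BCL2, LMAN1, TNFRSF11A, YES1, USP14, ATP5F1A, NDC80, CEP192, SMAD4, SMAD7, LAMA1, PTPRM, MYL12A, MYL12B, RPL17, RPL6P27, ROCK1P1, NDUFV2 and genes given only by list count were chosen after their values were seen. On simulated counts for this comparison over 16413 genes, 62.7% of genes changed 1.5-fold, 83.6% changed 2-fold and 100% changed 4-fold were recovered, with 10 false calls. The simulation gave all genes and both groups the same dispersion. The real groups differed in spread, so these rates may not hold for the real data. Alternatives were RLE and upper quartile scaling, filters, DESeq2 1.42.0, limma-voom (limma 3.58.1), a replicate block, each library left out, and other choices of members. The 7 rows on chromosome 18 and another chromosome were not used, and the counts of 1 list and 1 member are not reported here. Figures were drawn with matplotlib 3.10.9.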

Additional observations from a re-analysis of the deposited data

How the results depend on the processing

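The medians of both arms stayed below 0 under all alternatives run. With protein-coding members only, the long-arm median moved from -0.200 to -0.265 and the arm difference from 0.039 to 0.105. With 1 library left out, the short-arm median ran from -0.195 to -0.125, the long-arm median from -0.240 to -0.175 and the arm difference from 0.021 to 0.108. Counts of calls depended more on the choices. Of all tested genes 3095 were called, 2041 by DESeq2 and 1452 to 4942 with 1 library left out. The short arm had 14 calls and 4 to 23 with 1 library left out, and the long arm 42, 27 by DESeq2 and 20 to 67 with 1 library left out. With the replicate number as a block the calls were 4704 over the whole table and 66 on the long arm. The labels do not say that a number marks a shared batch, and deviations of same-numbered libraries had a correlation of 0.138 across genes, with only 2 pairs, so the libraries were not treated as paired. Whether same-numbered libraries share a batch was not settled. Of the 56 called members 19 were called in all 12 fits, 16 lower and 3 higher (LAMA3, LPIN2 and LIPG). With 1 library left out DSC2 ran from -0.41 to 0.07 (log2 fold change), the latter without EGFP negative library 1. Where 1 library of a group was left, it was assumed to vary like the other group. Depth limits genes under 5 CPM, of which 9.15% of all tested and 5.26% of members were called.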
